A study of Mus musculus with 20 samples.

Results

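The genes described here are 30 mouse genes of cholesterol and fatty acid synthesis, chosen by name: enzymes of the mevalonate, squalene and sterol steps, enzymes that build and desaturate fatty acids, and regulators that set their transcription. Of these, 29 had an array probe set of their own and all 29 passed the filter on low signal, out of 14010 genes tested of 18193 on the array. Each gene was read from its brightest probe set on average across the arrays. Acat2 was not analysed here.

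The study followed epiblast-like cells (EpiLCs), a culture model of the early postimplantation epiblast, on their way to cells like primordial germ cells when transcription factors are switched on. Male C57BL/6;129 embryonic stem cells of the line BVSCR26rtTA, which carry Blimp1-mVenus and stella-ECFP reporters and the doxycycline-responsive activator rtTA at Rosa26, were used without further transgenes (parental) or with piggyBac transgenes under a tetO-mCMV promoter. The transgenic lines were B (clone #2-4, Avi-Blimp1), P14 (clone #7-109, 3xFLAG-Prdm14), A (clone #8-2, V5-Tfap2c) and BP14A (clone #3-3, all 3 factors), each a single clone. Every line was sampled as EpiLCs after 36 h of differentiation without doxycycline, and as day 1 aggregates, seeded at 2000 cells per well and kept for 24 h in GK15 medium with 1.5 µg/ml doxycycline. This gave 10 groups of 2 arrays, described as biological duplicates. Parental aggregates received doxycycline too and no aggregates without it were measured, so aggregation, the change of medium, time and doxycycline cannot be told apart in a comparison of day 1 with EpiLCs. In RNA from whole aggregates, fewer cells of a type and less RNA per cell cannot be told apart either.

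As background, cells make cholesterol from acetyl-CoA through mevalonate, farnesyl pyrophosphate, squalene and lanosterol, and fatty acids from acetyl-CoA through malonyl-CoA, elongation and desaturation. Transcription of these enzymes is driven by sterol regulatory element-binding proteins (SREBPs), encoded by Srebf1 and Srebf2, which are held in the endoplasmic reticulum with Scap and Insig proteins when sterols are abundant and are cut free by the proteases encoded by Mbtps1 and Mbtps2 when sterols are scarce. In the nucleus they bind sterol regulatory elements, commonly beside sites for NF-Y and Sp1. Dividing cells such as those of the epiblast use both routes to build new membranes.

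Promoter sequences are shown for 5 genes that the results below return to: Hmgcs1, which encodes the cytosolic HMG-CoA synthase, the sterol enzymes Lss and Ebp, and the regulators Insig1 and Srebf2. They are the 250 bases before the annotated start in RefSeq (GRCm38.p6), read 5′ to 3′ in the direction of the gene, with capitals marking every match on either strand to TCACNCCAC (a sterol regulatory element) or CCAAT (the NF-Y box). They lie at chr13:119690101-119690350 for Hmgcs1, chr10:76531355-76531604 for Lss, chr5:28071162-28071411 for Insig1 and chr15:82147019-82147268 for Srebf2, all on the plus strand, and at chrX:8193513-8193762 on the minus strand for Ebp.
Hmgcs1: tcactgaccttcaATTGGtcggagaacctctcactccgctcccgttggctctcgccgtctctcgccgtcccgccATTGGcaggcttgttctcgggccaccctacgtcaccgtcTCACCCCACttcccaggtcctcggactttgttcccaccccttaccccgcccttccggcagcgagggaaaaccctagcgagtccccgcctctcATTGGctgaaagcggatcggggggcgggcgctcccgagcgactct
Lss: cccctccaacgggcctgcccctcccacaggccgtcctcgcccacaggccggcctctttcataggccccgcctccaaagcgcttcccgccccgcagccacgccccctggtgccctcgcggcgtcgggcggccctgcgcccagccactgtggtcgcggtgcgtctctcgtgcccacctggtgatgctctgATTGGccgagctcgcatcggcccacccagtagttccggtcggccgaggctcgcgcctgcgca
Insig1: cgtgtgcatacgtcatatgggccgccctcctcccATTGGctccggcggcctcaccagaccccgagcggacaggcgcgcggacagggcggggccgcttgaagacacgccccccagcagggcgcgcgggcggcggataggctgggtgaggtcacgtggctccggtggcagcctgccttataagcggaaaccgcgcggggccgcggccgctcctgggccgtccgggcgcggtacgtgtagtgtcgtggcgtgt
Srebf2: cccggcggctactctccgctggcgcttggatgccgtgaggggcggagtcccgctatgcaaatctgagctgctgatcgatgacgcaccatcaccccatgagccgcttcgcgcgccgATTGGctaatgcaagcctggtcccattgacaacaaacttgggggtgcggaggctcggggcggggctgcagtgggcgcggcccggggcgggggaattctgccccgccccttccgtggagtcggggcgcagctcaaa
Ebp: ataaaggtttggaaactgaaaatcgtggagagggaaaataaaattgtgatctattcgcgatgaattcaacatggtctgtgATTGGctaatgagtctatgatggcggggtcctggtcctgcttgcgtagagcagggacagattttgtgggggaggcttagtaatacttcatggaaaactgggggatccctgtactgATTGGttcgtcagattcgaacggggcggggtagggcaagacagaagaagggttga
The Hmgcs1 sequence held 1 match to TCACNCCAC, 137 to 129 bases before the start, and CCAAT boxes on both sides of it. The Ebp sequence held 2 CCAAT boxes, and Lss, Insig1 and Srebf2 held 1 each. RefSeq promoters were found for 23 of the 30 genes, 28 promoters in all. CCAAT, on either strand, was in 19 of the 28 (67.9%) against 33.8% of all 32851 promoters of this length. GGGCGG, the Sp1 box, was in 21 (75%) against 32.7%, and TCACNCCAC was in 1 (3.57%) against 1.05%. The motifs were searched as these letters on both strands; none contains another, but matches can share end bases. A match is a run of letters and not a measured site, and a window without one says nothing about binding.

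The arrays differed little in overall signal, with medians between 4.59 and 4.86 on the log2 scale, and duplicates correlated at 0.9659 to 0.9758 over the probe sets. The signal of 18S ribosomal probe sets was higher on every day 1 array (11.81 to 12.32, median 12.07) than on any EpiLC array (11.04 to 11.80, median 11.28), whereas the 3′ to 5′ differences of Gapdh and beta-actin overlapped between the stages; their part in the stage changes was not tested. Pou5f1, the defining pluripotency factor, was at 12.16 to 12.52 in all 10 groups, but other markers of EpiLCs moved on day 1. In BP14A, Pou3f1 went from 12.21 to 6.80, Dnmt3b from 13.31 to 9.87 and Otx2 from 10.69 to 8.93. Sox2 rose there from 10.32 to 12.54. In B, Tdgf1 went from 12.44 to 5.87. All 8 markers of EpiLCs passed the filter, and their summed signal was 14.93 to 15.05 in EpiLCs and 14.17 to 14.84 on day 1. The sum is weighted toward the brightest genes and can hide such falls. Among other cell types, the endoderm list summed to 6.52 to 6.99 in EpiLCs and 6.60 to 7.14 on day 1 with Afp, Ttr and Apoa1 below the filter (5 of 8 passed). The fibroblast or feeder list summed to 8.34 to 8.99 and 7.43 to 8.69 with Col1a1 below it (5 of 6 passed). The trophectoderm list (2 of 4 passed) spanned 6.36 to 6.99 and 5.62 to 6.40, mesoderm (4 of 5) spanned 6.86 to 7.29 and 6.57 to 7.75, and neural (3 of 3) 7.01 to 7.58 and 6.67 to 8.35. The mesoderm marker T and the germ cell marker Nanos3 had no probe set of their own by name, so they were not measured. Early germ cell markers (5 of 6) summed to 8.14 to 8.45 in EpiLCs and 8.03 to 12.69 on day 1, and naive pluripotency markers (7 of 7) to 9.71 to 10.07 and 9.10 to 11.02; the part of these shifts in the results below was not tested. The transgenes themselves could not be checked: the Prdm14 probe set stayed at 4.67 or lower on all 20 arrays, those of the Prdm14 lines included, and the Tfap2c probe set read 5.80 and 6.08 on day 1 in line A, against 6.38 and 6.29 in the parental line. Tfap2c reached 11.55 and 11.58 in BP14A but also 10.70 and 10.91 in P14, which has no Tfap2c transgene. Prdm1, the gene of Blimp1, read 6.25 and 6.47 on day 1 in B and 8.63 and 8.71 in BP14A against 4.90 and 5.01 in the parental line, but also 7.23 and 7.39 in P14, which has no Blimp1 transgene. It is not known here whether these probe sets lie in the transgene transcripts, so the transgenes of all 4 lines are given as labelled.

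Between EpiLCs and day 1, transcripts of nearly the whole pathway fell. Averaged over the 5 lines, 26 of the 29 genes fell, 1 rose (Ebp) and 2 did not pass the test (Mvk and Sc5d), at an adjusted p under 0.05 in a linear model fitted to all genes. In the background of 14010 genes, 25.7% fell and 34.4% rose by the same rule. The median change of the 29 was -0.55 on the log2 scale, against 0.04 over all genes. The steepest falls were those of the stearoyl-CoA desaturases Scd2 (-1.22 ± 0.03, SE) and Scd1 (-1.16 ± 0.03), followed by Lss (-1.02 ± 0.05), Hsd17b7 (-0.90 ± 0.10), Mvd (-0.78 ± 0.06) and Acaca (-0.77 ± 0.03). The calls for Elovl6 (-0.27), Cyp51 (-0.22) and Fads2 (-0.72) were not stable: Elovl6 and Cyp51 no longer passed when a gene's probe sets were averaged (-0.20 for Elovl6), Fads2 no longer passed after quantile normalization, and leaving out any of 8 single arrays also ended the call for Elovl6 (-0.23 to -0.27).

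**Figure D1:**
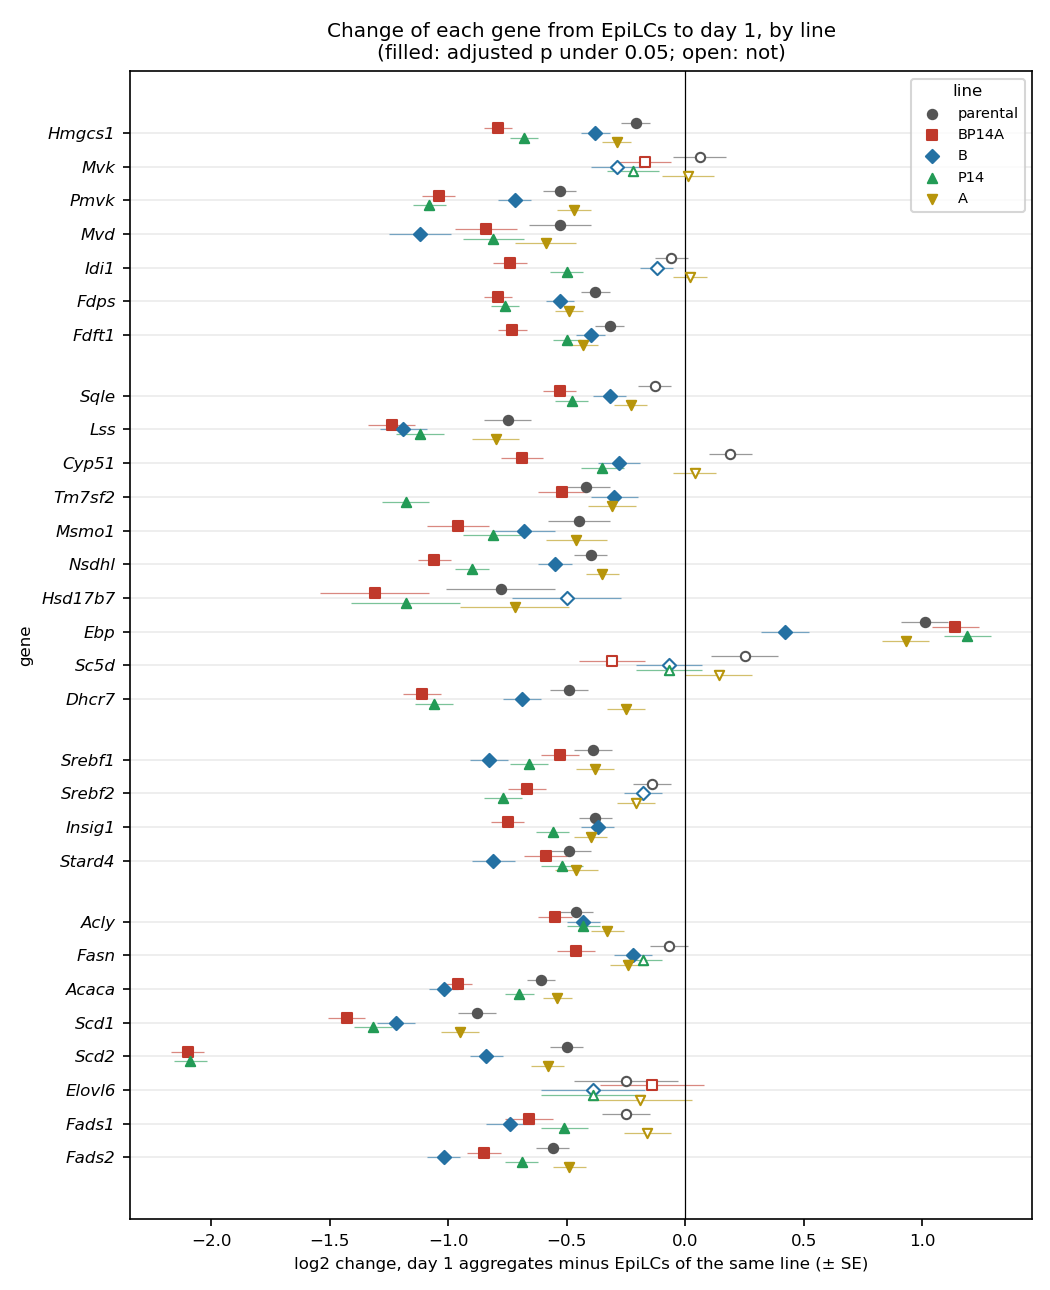
Change of each gene from EpiLCs to day 1 aggregates on the log2 scale (horizontal axis) for the 29 genes (vertical axis), by line, as the difference of group means ± SE of the fit; filled symbols passed the test and open ones did not. Nearly all symbols lie left of 0, those of Ebp lie right of it, and BP14A and P14 stand apart at Scd2 (-2.10 and -2.09).

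Along the mevalonate and squalene steps, 6 of 7 genes fell in the mean of the lines, with a median of -0.48. Hmgcs1, which makes HMG-CoA, was among the brightest genes of the pathway and fell by 0.47 ± 0.03 on the log2 scale (adjusted p = 8.64e-09). Its EpiLC arrays lay between 12.50 and 12.61 in all lines, whereas on day 1 it read 12.28 and 12.31 in the parental line, 12.30 and 12.33 in A, 12.09 and 12.21 in B, 11.83 and 11.96 in P14, and 11.82 and 11.79 in BP14A. Every day 1 array was therefore below every EpiLC array, and the BP14A and P14 arrays were the lowest. Pmvk, the phosphomevalonate kinase, fell by 0.77 ± 0.03, and Mvd, the decarboxylase that follows it, by 0.78 ± 0.06. Fdps, the farnesyl pyrophosphate synthase, read 12.15 to 12.30 on the EpiLC arrays and 11.43 to 11.84 on day 1, with no overlap, and fell by 0.59 ± 0.02. Fdft1, the squalene synthase, fell by 0.48 ± 0.03 and Idi1, the isopentenyl diphosphate isomerase, by 0.28 ± 0.03. For Mvk, the mevalonate kinase, the change was -0.12 ± 0.05 (adjusted p = 0.0511).

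Of the 10 genes from squalene to cholesterol, 8 fell, 1 rose and 1 did not pass, with a median of -0.60. Sqle, the squalene epoxidase, fell by 0.34 ± 0.03 and Lss, which folds its product into lanosterol, by 1.02 ± 0.05. Lss read 9.32 to 9.79 on the EpiLC arrays and 8.19 to 8.96 on day 1, so the stages did not overlap. The demethylation and reduction steps that follow were lower as well: Cyp51 (-0.22 ± 0.04), Tm7sf2 (-0.55 ± 0.04), Msmo1 (-0.67 ± 0.06), Nsdhl (-0.65 ± 0.03) and Hsd17b7 (-0.90 ± 0.10). Dhcr7, the 7-dehydrocholesterol reductase at the end of one branch, fell by 0.72 ± 0.04, from 9.04 to 9.37 on EpiLC arrays to 8.05 to 8.94 on day 1. Sc5d, the desaturase just before it, gave -0.01 ± 0.06 (adjusted p = 0.891).

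Ebp, the sterol isomerase that acts ahead of Sc5d, was the only one of the 29 genes to rise in any of the 6 comparisons of day 1 with EpiLCs, and it did so in all 6. It read 7.12 and 7.39 in parental EpiLCs and 8.42 and 8.11 on day 1, 7.28 and 7.39 against 8.46 and 8.48 in BP14A, 7.25 and 7.29 against 8.45 and 8.48 in P14, and 7.44 and 7.47 against 8.36 and 8.42 in A. In line B the rise was from 7.43 and 7.44 to 7.85 and 7.87. The stages did not overlap in any line, and the B arrays were the lowest on day 1. The rise was 0.94 ± 0.04 in the mean of the lines (adjusted p = 2.43e-09) and 0.42 ± 0.10 in B, where it no longer passed once each array was centred on its median. The Ebp promoter shown above carries CCAAT boxes, as do promoters of some but not all genes that fell. Any part of these matches in the changes was not tested.

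All 4 regulators and transport genes fell in the mean of the lines, with a median of -0.52. Srebf1 and Srebf2, which encode the SREBPs, fell by 0.56 ± 0.04 and 0.39 ± 0.04. Insig1, which encodes an SREBP retention protein and is itself an SREBP target, fell by 0.49 ± 0.03, and Stard4, which carries sterol between membranes, by 0.57 ± 0.04. Srebf2 differed by line on its brightest probe set. It read 9.15 and 9.25 in parental EpiLCs against 9.09 and 9.03 on day 1. This change of -0.14 ± 0.08 did not pass limma's test (adjusted p = 0.205). The readings were 9.21 and 9.30 against 8.58 and 8.39 in P14 and 9.23 and 9.19 against 8.61 and 8.48 in BP14A. A dimmer Srebf2 probe set, with a mean of 7.79, gave -0.38 in the parental line and -0.35 in the mean of the lines. Against parental aggregates on day 1 it gave -0.42 in BP14A, -0.30 in P14 and 0.38 in B. With probe sets averaged, the difference of changes of Srebf2 in P14 no longer passed. Insig1 read 11.18 to 11.36 on the 10 EpiLC arrays and 10.55 to 10.94 on the 10 day 1 arrays, without overlap.

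All 8 genes of fatty acid synthesis and modification fell in the mean of the lines, with a median of -0.59. Acly, which makes cytosolic acetyl-CoA from citrate, fell by 0.44 ± 0.03, Acaca, the acetyl-CoA carboxylase, by 0.77 ± 0.03, and Fasn, the fatty acid synthase, by 0.23 ± 0.03. Among the desaturases, Scd1 read 10.87 to 11.03 on EpiLC arrays and 9.46 to 10.06 on day 1, and fell by 1.16 ± 0.03. Scd2 read 12.53 to 12.72 in EpiLCs. On day 1 it was at 12.09 and 12.05 in the parental line, 12.13 and 12.09 in A, 11.74 and 11.79 in B, and at 10.51 and 10.64 in BP14A and 10.51 and 10.63 in P14. The last 4 arrays lie more than 1 log2 unit below all others. Fads1 and Fads2, the desaturases of polyunsaturated fatty acids, fell by 0.46 ± 0.04 and 0.72 ± 0.03, but the Fads2 probe sets conflict: another one, equally bright with a mean of 9.04, gave 0.00. Of the 19 genes with several probe sets above the filter, 14 had all probe sets of one sign for this comparison, and the exceptions were Cyp51, Fads2, Fdft1, Hsd17b7 and Sc5d. For Fdft1 and Hsd17b7 the deviating probe set was dim (4.58 and 5.45), and the next brightest ones, at 10.75 and 7.04, gave -0.48 and -0.73. For Elovl6 and Cyp51 the next brightest probe sets, at 10.10 and 8.90, gave only -0.02 and -0.03.

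**Figure D2:**
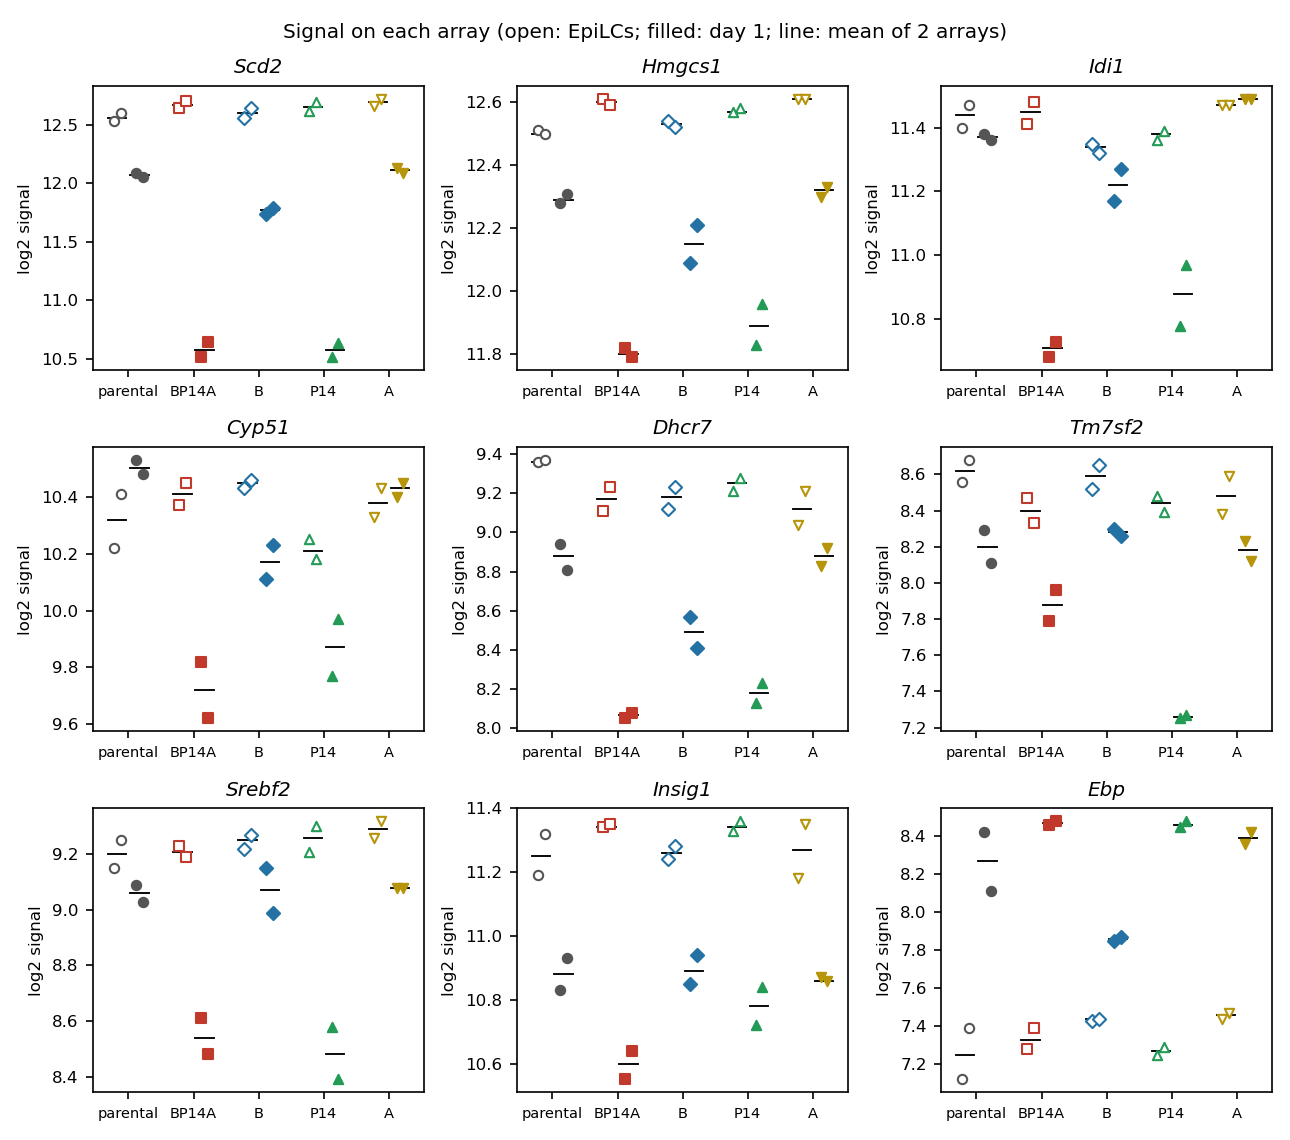
Log2 signal on each of the 20 arrays for selected genes, by line (horizontal axis), with open symbols for EpiLCs, filled symbols for day 1 aggregates and a line at the mean of 2 arrays. Scd2 on day 1 separates BP14A and P14 (10.51 to 10.64) from the other lines (11.74 to 12.13), and Ebp is higher on day 1 in every line.

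Within single lines the fall was present in all 5, and its median was deepest in BP14A and P14. In the parental line 19 of 29 genes fell (12.6% of all genes did) and Ebp alone rose (21.9%), with a median of -0.39. The counts were 21 lower and 1 higher in A (12.3% and 20.5% of all genes, median -0.35) and 22 and 1 in B (18.0% and 24.1%, median -0.50). They were 24 and 1 in P14 (15.8% and 19.2%, median -0.68) and 25 and 1 in BP14A (17.8% and 23.2%, median -0.74). The median over all genes was between 0.02 and 0.06 in these lines. In the parental line the largest falls were Scd1 (-0.88 ± 0.08), Hsd17b7 (-0.78 ± 0.23), Lss (-0.75 ± 0.10), Acaca (-0.61 ± 0.06), Fads2 (-0.56 ± 0.07) and Mvd (-0.53 ± 0.13), while Cyp51 (0.19 ± 0.09), Sc5d (0.25 ± 0.14) and Idi1 (-0.06 ± 0.07) did not pass. In BP14A they were Scd2 (-2.10 ± 0.07, 4.27-fold), Scd1 (-1.43 ± 0.08), Hsd17b7 (-1.31 ± 0.23), Lss (-1.24 ± 0.10), Dhcr7 (-1.11 ± 0.08) and Nsdhl (-1.06 ± 0.07). In P14, Scd2 (-2.09 ± 0.07, 4.24-fold) and Scd1 (-1.32 ± 0.08) were followed by Hsd17b7 and Tm7sf2 (both -1.18), Lss (-1.12 ± 0.10) and Pmvk (-1.08 ± 0.07). In B, Scd1 (-1.22 ± 0.08), Lss (-1.19 ± 0.10), Mvd (-1.12 ± 0.13), Acaca and Fads2 (both -1.02) and Scd2 (-0.84 ± 0.07) led, and in A Scd1 (-0.95 ± 0.08), Lss (-0.80 ± 0.10), Hsd17b7 (-0.72 ± 0.23), Mvd (-0.59 ± 0.13), Scd2 (-0.58 ± 0.07) and Acaca (-0.54 ± 0.06). Some of these calls were not stable: Hsd17b7 no longer passed in the parental line without any of its 4 arrays or in A without EpiLC replicate 1 or day 1 replicate 2, and Mvd in the parental line without day 1 replicate 2. Fads2 no longer passed in the parental line and B after quantile normalization, nor Acaca in the parental line and A with probe sets averaged. The equally bright other probe set of Fads2 gave -0.21 in the parental line. Fits restricted to the 4 arrays compared left 10 passing genes in the parental line and 9 in A.

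EpiLCs of the transgenic lines, before doxycycline, gave no passing difference from parental EpiLCs among the 29 genes in limma's test. The count was 0 of 29 for BP14A, B, P14 and A (0.0571%, 0.236%, 0.0642% and 0.0357% of all genes passed in either direction). At an unadjusted p under 0.05 there were 3 genes for BP14A, 3 for B, 1 for P14 and 1 for A. Of all 14010 genes, 1046, 1516, 819 and 1079 passed that cut in the same order. Differences spanned -0.22 to 0.16 in BP14A, -0.19 to 0.26 in B, -0.29 to 0.09 in P14 and -0.24 to 0.20 in A, with standard errors of 0.06 to 0.23, and the lowest adjusted p values were 0.65, 0.406, 0.853 and 0.531.

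On day 1 the lines parted. In BP14A, 22 of 29 genes were lower than in parental aggregates and 0 higher (0 also at an unadjusted p under 0.05), against 15.0% and 12.4% of all genes. Unadjusted, 2336 of all 14010 genes were higher. The median difference was -0.39, against -0.02 over all genes. Scd2 was lower by the widest margin (-1.50 ± 0.07, adjusted p = 1.18e-08), followed by Dhcr7 (-0.81 ± 0.08), Cyp51 (-0.79 ± 0.09), Idi1 (-0.67 ± 0.07), Nsdhl (-0.64 ± 0.07) and Lss (-0.58 ± 0.10). By role, 6 of 7 mevalonate and squalene genes, 8 of 10 sterol genes, 2 of 4 regulators and 6 of 8 fatty acid genes were lower. Cyp51, the lanosterol demethylase, read 9.82 and 9.62 in BP14A, 9.77 and 9.97 in P14, 10.11 and 10.23 in B, 10.40 and 10.45 in A, and 10.53 and 10.48 in parental aggregates. The BP14A and P14 arrays were below those of the other 3 lines, and B lay between. The genes that did not pass were Mvd, Hsd17b7, Ebp, Srebf1, Stard4, Acly and Elovl6. Leaving out 1 array gave 17 to 20 passing genes, with 17 without either BP14A array, 18 without parental replicate 1 and 20 without parental replicate 2; the genes whose calls ended were Acaca, Fasn, Insig1, Msmo1, Mvk, Sc5d and Tm7sf2.

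In P14, labelled as carrying the Prdm14 transgene alone, 19 genes were lower than in parental aggregates and 0 higher (0 also unadjusted), against 15.0% and 8.84% of all genes, and the median was -0.39 as in BP14A (-0.04 over all genes). Unadjusted, 1831 of all 14010 genes were higher. Scd2 (-1.50 ± 0.07, adjusted p = 1.81e-08) was followed by Tm7sf2 (-0.94 ± 0.10), Dhcr7 (-0.69 ± 0.08), Hsd17b7 (-0.69 ± 0.23), Pmvk (-0.65 ± 0.07) and Cyp51 (-0.63 ± 0.09). Tm7sf2, a sterol C14 reductase, read 7.25 and 7.27 in P14, 7.79 and 7.96 in BP14A, and between 8.11 and 8.30 on the day 1 arrays of the parental line, B and A. The P14 arrays were the lowest, then those of BP14A, with no overlap. By role, 6 of 7 mevalonate and squalene genes, 9 of 10 sterol genes and 2 of 4 regulators were lower, but only 2 of 8 fatty acid genes, the desaturases Scd1 (-0.39 ± 0.08) and Scd2. The fatty acid genes that did not pass included Acaca (-0.08 ± 0.06), Acly (0.01 ± 0.07) and Fads2 (-0.13 ± 0.07). Leaving out 1 array gave 15 genes (without parental or P14 replicate 1) or 16 (without either replicate 2), and the calls of Hsd17b7, Msmo1, Mvd, Mvk, Sc5d and Srebf1 ended in at least 1 of these fits.

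In B, labelled as carrying the Blimp1 transgene alone, 11 genes were lower and 0 higher (0 also unadjusted), against 8.79% and 8.42% of all genes, with a median of -0.15 (0.02 over all genes). Unadjusted, 2153 of all 14010 genes were higher. The largest differences were those of Fads1 (-0.56 ± 0.10), Fads2 (-0.45 ± 0.07), Mvd (-0.41 ± 0.13), Ebp (-0.41 ± 0.10), Dhcr7 (-0.38 ± 0.08) and Acaca (-0.35 ± 0.06). The equally bright other probe set of Fads2 gave -0.11. Of the fatty acid genes 5 of 8 were lower, the others being Scd2 (-0.31 ± 0.07) and Scd1 (-0.30 ± 0.08). Acaca read 9.06 and 9.20 in B against 9.50 and 9.46 in parental aggregates, and Fads1 8.51 and 8.57 against 9.12 and 9.09, without overlap in either gene. Of the other roles, Mvd (1 of 7 mevalonate and squalene genes), Cyp51, Nsdhl, Ebp and Dhcr7 (4 of 10 sterol genes) and Srebf1 (1 of 4 regulators) were lower. These calls rested on few arrays: 3 genes passed without parental replicate 1, 5 without B replicate 1, 6 without B replicate 2 and 8 without parental replicate 2. Each of the 11 calls ended in at least 1 leave-one-out fit or other setting, and a fit to the 4 arrays alone left 0.

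In A, labelled as carrying the Tfap2c transgene alone, 0 of 29 genes passed in either direction in limma's test, also at an unadjusted p under 0.05, and 0.0143% and 0.0714% of all genes were higher and lower. Unadjusted, 927 of all 14010 genes passed in either direction. Differences spanned -0.11 to 0.15 (median 0.01, -0.03 over all genes), with standard errors of 0.06 to 0.23 and a lowest adjusted p of 0.83. The highest and lowest differences were those of Elovl6 (0.15 ± 0.22), within its standard error, and Lss (-0.11 ± 0.10), close to it. Idi1 read 11.49 on both A arrays against 11.38 and 11.36 in parental aggregates. Its difference of 0.12 was the highest among the mevalonate and squalene genes.

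**Figure D3:**
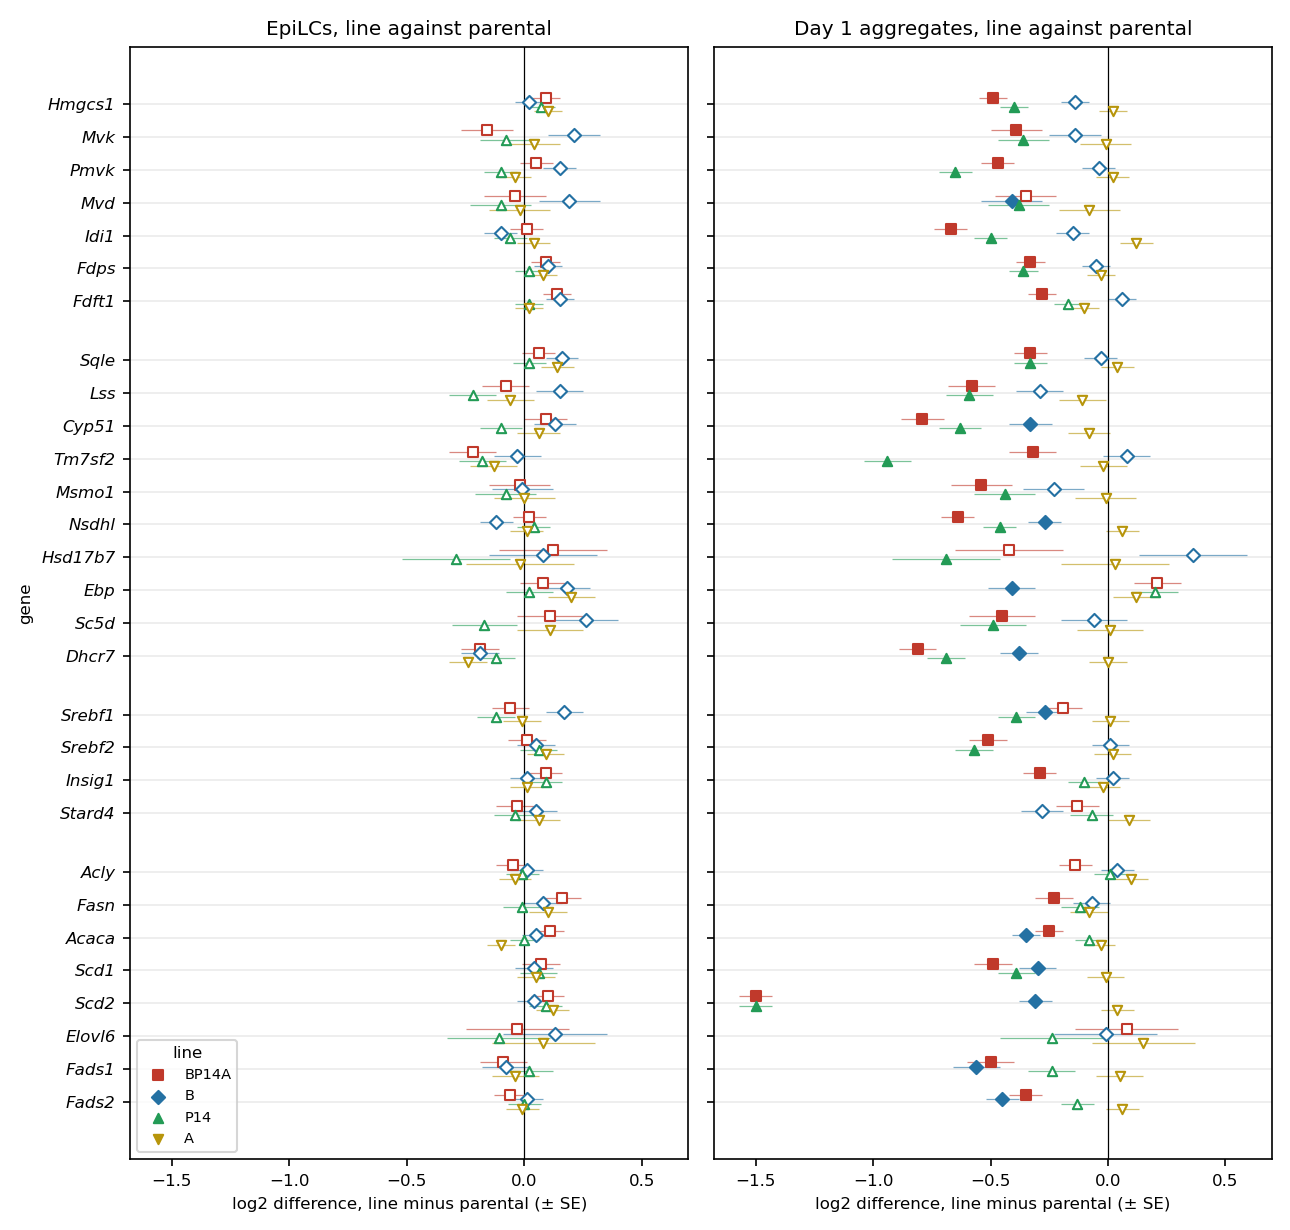
Difference of each transgenic line from the parental line on the log2 scale (± SE of the fit) for the 29 genes, in EpiLCs and in day 1 aggregates; filled symbols passed the test. In EpiLCs no symbol is filled, while on day 1 those of BP14A (22 genes), P14 (19) and B (11) lie left of 0 and those of A stay near it.

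The test of the difference itself, the change in a line minus the change in the parental line, passed for 16 genes in BP14A, 12 in P14, 6 in B and 0 in A. All passing differences were negative (in all genes 18.7%, 12.1%, 8.66% and 0% passed in either direction). Most were deeper falls, but Ebp in B rose less. Cyp51 fell in BP14A, P14 and B, whereas its parental change of 0.19 did not pass. For A, 0 genes passed unadjusted too (652 of all 14010 genes did), and values spanned -0.18 to 0.24. Scd2 fell further than in the parental line by 1.60 ± 0.09 on the log2 scale in BP14A and by 1.59 ± 0.09 in P14. Of the 6 calls in B none was kept in every leave-one-out fit: the count was 0 without parental day 1 replicate 1, 1 without parental EpiLC replicate 1, B EpiLC replicate 1 or 2, or B day 1 replicate 1, 2 without B day 1 replicate 2, 3 without parental day 1 replicate 2, and 7 without parental EpiLC replicate 2. All 4 transgenic lines were set against the same 2 parental arrays at each stage, so these comparisons share their control values.

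Comparing transgenic lines directly on day 1, a choice made after the values had been seen, avoids the parental arrays. Between BP14A and P14 a single gene of 29 passed (6.17% of all genes in either direction): Tm7sf2 was higher in BP14A by 0.62 ± 0.10 (adjusted p = 0.00271). At an unadjusted p under 0.05 there were 9 genes (2673 of all 14010 genes), and Scd2 gave 0.01 ± 0.07. Against B, BP14A had 15 genes lower and 1 higher (28.1% of all genes in either direction), and P14 had 14 lower and 4 higher (29.2%). Of all 14010 genes, 2184 were lower and 1755 higher in BP14A than in B, and 2555 and 1529 in P14. The 4 of 29 higher in P14 are thus close to the share over all genes. Scd2 led both, at -1.19 ± 0.07. In BP14A it was followed by Hsd17b7 (-0.78 ± 0.23), Srebf2 (-0.53 ± 0.08), Idi1 (-0.51 ± 0.07), Cyp51 (-0.45 ± 0.09) and, both at -0.42, Pmvk and Dhcr7. In P14 it was followed by Hsd17b7 (-1.05 ± 0.23), Tm7sf2 (-1.02 ± 0.10), Pmvk (-0.61 ± 0.07), Srebf2 (-0.59 ± 0.08) and Sc5d (-0.43 ± 0.14). Hsd17b7 in BP14A no longer passed without B replicate 1 or BP14A replicate 2 (-0.66 in each), Cyp51 there not after median centring, and Sc5d in P14 not without P14 replicate 1 (-0.31), B replicate 1 (-0.53) or B replicate 2 (-0.34). The gene higher in both was Ebp (0.61 ± 0.10). Acaca (0.27 ± 0.06), Fads1 (0.32 ± 0.10) and Fads2 (0.31 ± 0.07) were higher in P14 than in B, though Acaca and Fads1 no longer passed after median centring and in some leave-one-out fits (Acaca without B replicate 1 or P14 replicate 2, Fads1 without any of the 4 arrays). Fads2 no longer passed after quantile normalization. Median centring left 8 passing genes for BP14A against B and 7 for P14 against B.

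Other genes of lipid metabolism did not all follow. Among 4 genes of SREBP processing and feedback, 3 rose and 1 fell in the mean of the lines: Insig2 (0.58 ± 0.05), Scap (0.52 ± 0.05) and Mbtps1 (0.36 ± 0.03) rose, and Mbtps2 fell by 0.18 ± 0.06. The fall of Mbtps2 passed in the parental line (-0.56 ± 0.14) and A (-0.48 ± 0.14), while B (-0.23 ± 0.14), P14 (-0.01 ± 0.14) and BP14A (0.36 ± 0.14) did not pass. On day 1 Mbtps2 was higher than in parental aggregates in BP14A (0.85 ± 0.14, adjusted p = 0.00074) and P14 (0.64 ± 0.14, adjusted p = 0.00584). Of 6 tested genes that move or sense sterols, Npc2, a lysosomal cholesterol carrier, rose by 0.70 ± 0.03, and the liver X receptor targets Abcg1 (-1.60 ± 0.06) and Mylip (-1.45 ± 0.04) fell, although Abcg1 in B did not pass (-0.16 ± 0.14). Abcg1, a sterol exporter, was nevertheless higher on day 1 than in the parental line in B (2.35 ± 0.14), BP14A (1.09 ± 0.14) and P14 (0.72 ± 0.14). Of 19 further lipid synthesis genes, 9 fell and 3 rose, with a median of 0.01. The falls included Acacb (-1.23 ± 0.08), Lpin1 (-1.17 ± 0.05), Aacs (-0.89 ± 0.05), Mid1ip1 (-0.83 ± 0.03) and Pgd (-0.76 ± 0.03). Acsl4, which activates arachidonic acid, gave -0.89 ± 0.04 in the mean of the lines, but it fell in BP14A (-2.64 ± 0.09) and P14 (-1.94 ± 0.09) and did not pass in the parental line (0.16 ± 0.09), B (0.01 ± 0.09) or A (-0.02 ± 0.09). On day 1 it was lower than in parental aggregates by 2.88 ± 0.09 in BP14A and by 2.30 ± 0.09 in P14.

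Transcripts of fatty acid oxidation, the opposite route, mostly rose: 8 of 9 tested genes were higher and 1 lower in the mean of the lines, with a median of 0.57. Cpt1a, the rate-limiting carnitine palmitoyltransferase of mitochondrial fatty acid import, rose by 1.80 ± 0.07, Decr1 by 1.25 ± 0.05, Acaa2 by 0.78 ± 0.08 and Acadl by 0.77 ± 0.03, whereas Eci1 fell by 0.13 ± 0.04. In single lines 5 to 8 of the 9 rose, with medians of 0.43 to 0.87, where 19.2% to 24.1% of all genes rose. On day 1 Cpt1a was higher than in the parental line in BP14A (1.33 ± 0.15) and P14 (0.94 ± 0.15) and lower in B (-1.07 ± 0.15). These lists were chosen with results of these arrays known, and their counts are descriptions. In the mean of the lines 34.4% of all genes rose and 25.7% fell.

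**Figure D4:**
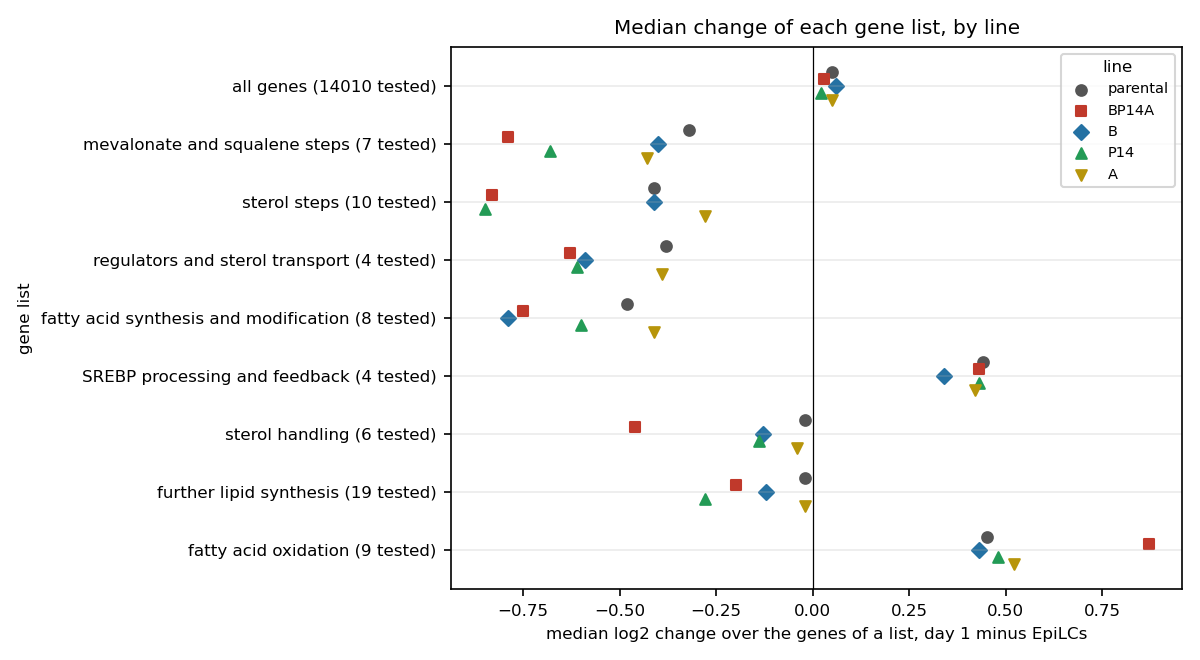
Median log2 change from EpiLCs to day 1 aggregates (horizontal axis) over the tested genes of each list (vertical axis), by line, with all genes as reference. The 4 role groups of the cholesterol and fatty acid synthesis genes lie left of 0 in every line (-0.28 to -0.85), and fatty acid oxidation (0.43 to 0.87) and SREBP processing and feedback (0.34 to 0.44) lie right of it.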

How the data were processed

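RNA of the 20 samples was hybridised to expression arrays, 1 per sample. The authors deposited 1 log2 value per probe set and array; the base was inferred from the largest value, 13.83, which fits a 16-bit scanner in base 2. Their normalization, summarisation and software were not given in the sources used here; no further scaling was applied. With only 2 arrays in a group, precision is limited.

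The platform annotation pairs 34945 probe sets with 1 gene, 932 with several and 9160 with none; 64 control probe sets were left out. Probe sets whose highest group mean reached the 40th percentile of all values (3.95) were kept (30346), and each gene took its brightest one. A linear model with a mean per group was fitted to all 20 arrays with limma 3.58.1 (R 4.3.3; 10 residual and 1.79 prior degrees of freedom). Two-sided p values were adjusted by the Benjamini-Hochberg method across the 14010 genes, separately in every comparison, and a gene passed at an adjusted p under 0.05. Figures and promoter searches used Python 3.11.15 with pandas 2.3.3. The 18 comparisons are day 1 against EpiLCs, each line against parental at both stages, and the differences of changes; 3 comparisons between transgenic lines were added after seeing the data. Members and lists were chosen with earlier results of these data known, so counts over them are descriptions. All members are named; for each comparison the 6 largest passing changes per direction, or all where fewer passed, are printed, and further changes are given by role. Lists comprised marker genes of 8 cell types, SREBP processing, sterol handling, further lipid synthesis and fatty acid oxidation. Alternatives were median centring, quantile normalization, no filter or one at the 60th percentile, averaged probe sets, a replicate block, a trended robust prior, fits to the compared groups alone, an added log2 size of 1, and leaving out each array. On simulated data for BP14A against parental aggregates (14010 genes), 50 genes of any noise level were changed at each size. The test recovered 6% of genes changed by 0.25 on the log2 scale, 48% at 0.5, 68% at 1 and 90% at 2, with 6 false calls. In the real comparison 1738 genes were higher and 2108 lower, which makes the adjusted cut less strict. The simulated shares therefore do not measure the power of the tests reported here.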

Additional observations from a re-analysis of the deposited data

Results flagged for a closer look

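For 34 values the change from EpiLCs to day 1 in a transgenic line differed from that in the parental line by the test of the difference (limma, adjusted p under 0.05 over all genes); values are the line's log2 change minus the parental one. In BP14A they were -1.60 for Scd2, -0.88 for Cyp51, -0.68 for Idi1, -0.66 for Nsdhl, -0.62 for Dhcr7, -0.58 for Hmgcs1, -0.55 for Scd1, -0.53 for Srebf2, -0.51 for Pmvk, -0.49 for Lss, -0.41 for Fdps, -0.41 for Fdft1, -0.39 for Sqle, -0.39 for Fasn, -0.37 for Insig1 and -0.35 for Acaca. In P14 they were -1.59 for Scd2, -0.76 for Tm7sf2, -0.63 for Srebf2, -0.57 for Dhcr7, -0.55 for Pmvk, -0.53 for Cyp51, -0.49 for Nsdhl, -0.47 for Hmgcs1, -0.45 for Scd1, -0.44 for Idi1, -0.38 for Fdps and -0.34 for Sqle. In B they were -0.59 for Ebp, -0.46 for Cyp51, -0.46 for Fads2, -0.44 for Srebf1, -0.40 for Acaca and -0.34 for Scd2. Calls kept in every leave-one-out fit and every other setting except the fit to the compared groups alone numbered 9 of 16 in BP14A, 5 of 12 in P14 and 0 of 6 in B. Each group holds 2 arrays, too few to look for an outlying array.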

How the results depend on the processing

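Directions were stable in most settings. Of the 264 passing gene changes, the call was lost in 59 after median centring, 43 (and 1 reversed) with probe sets averaged, 19 (and 2 reversed) after quantile normalization, 17 without the filter, 2 with the replicate block and 113 in fits to the compared groups alone, and in 0 with the stricter filter or the trended robust prior. Leaving out 1 array lost 205 of 1624. Reversed under quantile normalization were Fads2 in BP14A, day 1 against EpiLC (0.04), and in the B difference of changes (0.22). Cyp51 in B, day 1 against EpiLC (0.08), was reversed with probe sets averaged. A gene's brightest probe set was chosen again after each rescaling. The 2 Fads2 probe sets with a mean of 9.04 gave -0.72 and 0.00 in the mean of the lines. Whether the other one gave the quantile-normalized Fads2 results was not tested, nor was the cause for Cyp51.

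Counts of passing members moved as follows. For the size cut and the fits without 1 array no share over all genes is given, so those counts only show how calls moved. With a log2 change of at least 1 required, which removes smaller changes by construction, they were 3 (mean of lines), 1 (parental), 8 (BP14A), 5 (B), 8 (P14) and 0 (A) for day 1 against EpiLC. Against parental on day 1 they were then 1 (BP14A), 0 (B) and 1 (P14), for the differences of changes 1, 0 and 1, and between transgenic lines 0 (BP14A against P14), 1 (BP14A against B) and 3 (P14 against B). Fits to the compared groups alone, which have fewer arrays, gave 10 (parental) and 9 (A) for day 1 against EpiLC. They gave 10, 0 and 5 for BP14A, B and P14 against parental on day 1, and 10, 0 and 4 for the differences of changes. Between transgenic lines they gave 0, 3 and 4. Of all 14010 genes, higher and lower, these fits passed 1382 and 866 (parental) and 1528 and 839 (A) for the stage. On day 1 they passed 887 and 1135, 84 and 79, and 627 and 1010. For the differences of changes they passed 762 and 872, 121 and 120, and 457 and 628. Between transgenic lines they passed 0 and 0, 718 and 1026, and 681 and 1165. Averaged probe sets gave 7 for B against parental on day 1 and 2 for the B difference of changes. Of all 14010 genes, 913 were then higher and 926 lower in the first, and 380 and 452 in the second. Median centring gave 10, 2 and 6 for the differences of changes of BP14A, B and P14, and 8 and 7 for BP14A and P14 against B. Of all 14004 genes, higher and lower, the differences of changes then passed for 790 and 1019, 204 and 438, and 406 and 789. Against B, 1576 and 1443 passed in BP14A and 1298 and 1662 in P14. The B difference of changes was 3 without the filter (380 higher and 509 lower of 18193 genes). It was 10 with the trended robust prior (640 and 1004 of 14010). Leaving out 1 array gave 3 to 8 for B against parental on day 1 and 0 to 7 for the B difference of changes; the cause was not tested.

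Replicate differences over all genes correlated little: -0.06 to 0.20 (median 0.02) over 45 pairs of groups, with 6 over 0.1. For EpiLCs and day 1 of the same line they correlated at -0.02 to 0.07. Low correlation over all genes cannot show that the samples were unpaired. Single genes can share a shift: Scd2 read higher in replicate 2 in EpiLCs of every line, but not on day 1 in the parental line and A. The replicate block gave 27 passing members in the mean of lines (of all 14010 genes 4900 were higher and 3671 lower). Against parental on day 1 it gave 22, 11 and 18 for BP14A, B and P14 (1859 and 2229, 1319 and 1383, 1340 and 2261). For the differences of changes it gave 18, 8 and 12 (1357 and 1556, 625 and 848, 786 and 1158).

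Over all genes, scaling moved the split of calls (higher and lower): B against parental on day 1 from 1180 and 1231 to 512 and 1047 after centring, the B difference of changes from 521 and 692 to 204 and 438, BP14A against P14 from 496 and 369 to 358 and 444 after quantile normalization, P14 against B from 1529 and 2555 to 2087 and 1957, and BP14A against parental EpiLCs from 3 and 5 to 0 and 3 after centring. With 2 arrays per group, small changes go uncalled.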
